A study of Mus musculus with 12 samples.

Results

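The genes described are 10 immediate early genes (Fos, Fosb, Jun, Junb, Egr1, Egr2, Egr3, Ier2, Atf3 and Nr4a1), chosen by name and read from the array probe sets that carry one of these symbols alone. A probe set is a group of short probes that reads one transcript. Of the 10 genes, 9 had such a probe set among the 11361 genes of the table, through 11 probe sets in all, and Junb was not analysed here. The RNA came from fluorescent cells sorted out of the embryonic mouse cortex, with 3 arrays in each of 4 groups. MGE cells, which leave the medial ganglionic eminence and become mainly somatostatin and parvalbumin interneurons, were taken at E18.5 and at E14.5 from Nkx2-1-Cre Tg embryos that also carried R26R-YFP fl/fl, in which Cre switches on a yellow fluorescent protein for good in every cell that once expressed Nkx2-1. CGE cells, from the caudal and lateral eminences, were taken at E18.5 and at E16.5 from Nkx2-1-Cre;Dlx1-lox-Venus-lox embryos, in which Dlx1 drives Venus and Cre removes it from the Nkx2-1 lineage. All groups therefore carried an Nkx2-1-Cre transgene, the lineages were marked with different reporters, and the mice were of mixed C57BL/6/CBA background. By the paper's methods, tissue samples were pooled and the study used mice of both sexes. The array titles do not give the sex of the embryos. The tissue was digested with papain, triturated and sorted before the cells were lysed, so that levels present in the cortex and levels reached during handling cannot be told apart here. The titles call the arrays of a group biological replicas, and the p-values below measure the spread between them.

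Immediate early genes are switched on within minutes of a growth factor, synaptic activity, calcium entry or injury, without need of new protein. Their promoters and enhancers are bound beforehand by CREB, at the cyclic AMP response element (CRE), and by SRF with its ternary complex partners, at the CArG box, and phosphorylation of these factors starts transcription. Most of the products are transcription factors: FOS and JUN proteins pair to form AP-1, EGR proteins are zinc finger factors that bind GC-rich sites, ATF3 belongs to the ATF/CREB family, and NR4A1 is an orphan nuclear receptor. In neurons they are widely used as a trace of recent activity.

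The promoters of 4 members whose levels are described below are shown because they carry the short CRE core or the CArG box, the elements through which the family is known to be induced. The windows come from RefSeq on build GRCm38.p6 and run from 250 bases before the transcription start to 50 bases after it, 5′ to 3′ on the gene's strand. The capitals mark TGACG, or CGTCA where the core lies on the opposite strand, and, in Egr2, also the CArG box. The Fos window is chr12:85473640-85473939 (plus strand), the Fosb window chr7:19309996-19310295 (minus strand), the Egr2 window chr10:67537619-67537918 (plus strand, the third of its 5 windows) and the Nr4a1 window chr15:101266596-101266895 (plus strand).
Fos: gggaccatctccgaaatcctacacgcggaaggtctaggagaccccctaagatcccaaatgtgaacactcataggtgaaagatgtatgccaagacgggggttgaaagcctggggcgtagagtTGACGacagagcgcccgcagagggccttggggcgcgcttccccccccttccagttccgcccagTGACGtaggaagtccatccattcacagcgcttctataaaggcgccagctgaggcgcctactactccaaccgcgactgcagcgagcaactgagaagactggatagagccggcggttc
Fosb: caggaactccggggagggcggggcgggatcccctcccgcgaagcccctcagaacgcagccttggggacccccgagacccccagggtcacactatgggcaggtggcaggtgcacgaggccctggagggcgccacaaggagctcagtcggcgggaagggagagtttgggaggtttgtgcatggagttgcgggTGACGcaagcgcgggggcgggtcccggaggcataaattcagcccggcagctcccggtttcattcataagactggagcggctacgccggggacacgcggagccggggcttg
Egr2: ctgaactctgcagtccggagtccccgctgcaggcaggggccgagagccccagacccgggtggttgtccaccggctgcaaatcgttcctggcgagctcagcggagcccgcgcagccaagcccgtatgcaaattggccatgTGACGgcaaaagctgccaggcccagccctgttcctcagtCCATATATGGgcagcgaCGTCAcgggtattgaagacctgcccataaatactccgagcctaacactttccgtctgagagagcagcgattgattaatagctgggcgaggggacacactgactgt
Nr4a1: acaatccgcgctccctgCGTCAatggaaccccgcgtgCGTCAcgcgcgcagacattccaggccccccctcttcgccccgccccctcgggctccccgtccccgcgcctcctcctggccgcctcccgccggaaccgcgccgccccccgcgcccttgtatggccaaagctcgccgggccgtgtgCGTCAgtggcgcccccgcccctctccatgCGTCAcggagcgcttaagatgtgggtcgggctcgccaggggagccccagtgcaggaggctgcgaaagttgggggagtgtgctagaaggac

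The promoter table held a window for 7 of the 10 members, namely Fos, Fosb, Jun, Junb, Egr2, Atf3 and Nr4a1. On either strand, 6 of these 7 held the core TGACG in at least 1 window, Jun being the exception, against 23% of the 27025 genes in the table. Nr4a1 had 4 copies, Fos and Egr2 had 2 each, and Fosb, Junb and Atf3 had 1. The full palindrome TGACGTCA, which contains the core, was in 0 of the 7, against 2.03% of all genes, and the CArG box was in 1 of them, Egr2, against 1.81% of all genes. Egr2 has several windows and so several chances of a match, and a match describes letters, not a bound site.

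Within groups, pairs of arrays correlated between 0.973 and 0.995 over all probe sets, and MGE E14.5 replicates 1 and 2 were the most alike (SD of their log2 differences 0.231, while the other pairs had 0.375 to 0.518). Of 7 interneuron markers, 6 were in the table, and all 6 lay above the 40th percentile of the array on each of the 12 arrays. The 4 MGE markers (Lhx6, Sox6, Maf and Sst) averaged 11.31 to 12.37 on MGE arrays and 9.45 to 10.67 on CGE arrays, and the 4 CGE markers (Sp8, Prox1, Nr2f2 and Htr3a) 6.63 to 7.63 on MGE arrays and 11.47 to 12.24 on CGE arrays. Markers of oligodendrocyte precursors averaged 11.00 to 11.73 (log2 level) on the MGE E18.5 arrays, 6.83 to 7.19 at MGE E14.5, 5.16 to 5.58 at CGE E18.5 and 4.86 to 5.26 at CGE E16.5, so that these markers stood beside those of interneurons in the MGE E18.5 samples. In bulk RNA of this kind, fewer cells of a type and less RNA per cell cannot be told apart.

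Some of the immediate early genes passed the test of a stage difference in each lineage, and Fos and Jun passed it in neither. Without a filter on dim probe sets, limma called 5 of the 9 measured members higher at E18.5 than at E14.5 in MGE cells (Fosb, Egr1, Egr2, Egr3 and Nr4a1) and 6 higher at E18.5 than at E16.5 in CGE cells (Fosb, Egr1, Egr2, Egr3, Ier2 and Atf3), at a Benjamini-Hochberg adjusted p under 0.05. The background was 12.1% of all 11361 genes called higher in MGE cells and 4.07% in CGE cells. All 9 differences were above 0 in both lineages. The median difference of the 9 members was 1.59 in MGE cells, against -0.05 over all genes, and 1.99 in CGE cells, against -0.06 over all genes (log2 scale). Every E18.5 array lay above every earlier array for 6 of the 9 in MGE cells, where 21.8% of all genes did the same, and for 8 of the 9 in CGE cells, where 9.46% did. The MGE count fell to 3 when MGE E14.5 replicate 1, MGE E14.5 replicate 3 or MGE E18.5 replicate 1 was left out, and the CGE count fell to 3 without CGE E16.5 replicate 3. Calls fell over all genes as well. Among the 8796 genes kept by the filter described below, 1007 were called higher in MGE cells with all arrays. Without the MGE arrays named, 759, 793 and 808 were, in that order. In CGE cells 395 were called higher with all arrays and 149 without CGE E16.5 replicate 3.

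**Figure D1:**
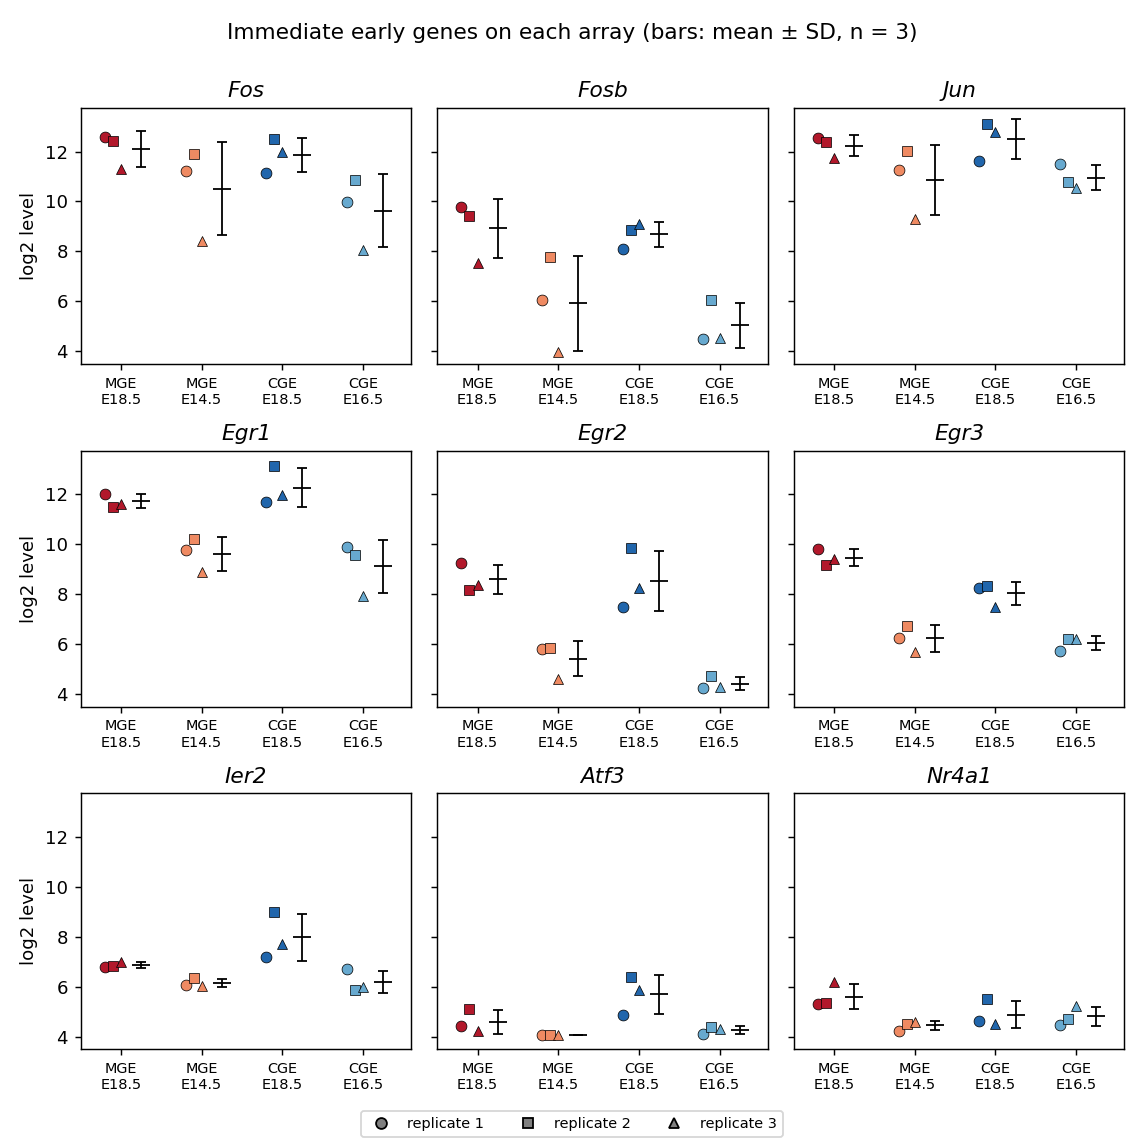
Log2 level of each of the 9 measured members on each array, by group; symbols are the replicates, and the bars at the right of each group are the mean ± SD of 3 arrays. Egr1, Egr2 and Egr3 lie higher on every E18.5 array than on every earlier array of the same lineage, while Fos at MGE E14.5 runs between 8.40 and 11.92.

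The filter used for the tests per gene kept 8796 genes, among them 7 members. Fos, Jun and Egr1 lay above the level of the filter on all 12 arrays, whereas Fosb, Egr2, Egr3 and Ier2 passed largely or wholly through their E18.5 arrays, and Atf3 and Nr4a1 were too dim to pass, so that the 7 are not a neutral sample of the family. Ier2 passed through its CGE E18.5 arrays alone. Among the 8796 genes, 4 members were called higher in MGE cells, where 11.4% of genes were, and 5 in CGE cells, where 4.49% were. limma called 0 of the 7 lower in either lineage, each of their differences being above 0, where it called 9.77% of genes lower in MGE cells and 6.37% in CGE cells. Values below are from this fit, except those of Atf3 and Nr4a1, which are from the fit without the filter.

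Fos encodes the founding FOS subunit of AP-1. Its level was 12.60, 12.43 and 11.29 on the MGE E18.5 arrays, against 11.23, 11.92 and 8.40 at MGE E14.5. In CGE cells it was 11.14, 12.49 and 11.99 at E18.5, against 9.99, 10.87 and 8.04 at E16.5. The MGE stages overlapped and the CGE stages did not, and replicate 3 was the lowest array of both early groups. The difference was 1.59 ± 0.87 (SE, 95% interval -0.31 to 3.50, limma adjusted p = 0.225) in MGE cells and 2.24 ± 0.87 (0.33 to 4.14, adjusted p = 0.126) in CGE cells. Neither passed the test, and the intervals reach beyond a difference of 3 in both lineages. The MGE difference became 0.53 (adjusted p = 0.663) without MGE E14.5 replicate 3, and the CGE difference 1.44 (adjusted p = 0.362) without CGE E16.5 replicate 3.

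Fosb, another FOS subunit, was called higher at E18.5 in both lineages. It read 9.77, 9.43 and 7.55 at MGE E18.5, against 6.04, 7.76 and 3.95 at MGE E14.5, where replicate 2 exceeded the lowest E18.5 array. It read 8.11, 8.85 and 9.09 at CGE E18.5, against 4.50, 6.06 and 4.53 at CGE E16.5, with no overlap. Fosb was higher by 3.00 ± 0.84 in MGE cells (adjusted p = 0.0264) and by 3.65 ± 0.84 in CGE cells (adjusted p = 0.0194). MGE E14.5 replicate 3 stood at percentile 1.9 of its array and CGE E16.5 replicates 1 and 3 at 5.9 and 6.1, and no detection calls were used, so that the size of these differences is not exact. The MGE call was lost without MGE E14.5 replicate 1 or 3 or MGE E18.5 replicate 1 or 2 (adjusted p = 0.065, 0.0869, 0.0985 and 0.0795 in that order), the difference being 2.01 without MGE E14.5 replicate 3, and the CGE call without CGE E16.5 replicate 1 or 3 or CGE E18.5 replicate 2 or 3 (adjusted p = 0.0527, 0.0739, 0.0631 and 0.0509).

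Jun encodes the partner with which FOS proteins bind DNA. Its brighter probe set read 12.56, 12.39 and 11.76 at MGE E18.5, against 11.26, 12.03 and 9.29 at MGE E14.5. It read 11.61, 13.10 and 12.79 at CGE E18.5, against 11.50, 10.79 and 10.54 at CGE E16.5. The MGE stages overlapped through a single early array, replicate 2, and the CGE stages were narrowly separated. The differences of 1.38 ± 0.60 in MGE cells (adjusted p = 0.128) and 1.56 ± 0.60 in CGE cells (adjusted p = 0.12) did not pass. The MGE difference became 1.96 (adjusted p = 0.0436) without MGE E14.5 replicate 2 and 0.60 (adjusted p = 0.412) without MGE E14.5 replicate 3, and the CGE difference, unaltered at 1.56, passed without MGE E14.5 replicate 3 (adjusted p = 0.0345), an array that enters it only through the common estimate of spread. The other Jun probe set gave 0.94 ± 0.73 in MGE cells (adjusted p = 0.4) and 1.70 ± 0.73 in CGE cells (adjusted p = 0.16).

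Egr1 encodes the zinc finger factor most used as an activity marker beside FOS. It read 12.03, 11.50 and 11.63 at MGE E18.5, against 9.78, 10.20 and 8.87 at MGE E14.5. It read 11.69, 13.15 and 11.96 at CGE E18.5, against 9.87, 9.58 and 7.91 at CGE E16.5. The stages did not overlap in either lineage, and the lowest array of each early group was again replicate 3. Egr1 was higher by 2.10 ± 0.52 in MGE cells (4.29-fold, adjusted p = 0.0136) and by 3.14 ± 0.52 in CGE cells (8.84-fold, adjusted p = 0.00494). The MGE call was lost without MGE E14.5 replicate 3 (adjusted p = 0.0567) or MGE E18.5 replicate 1 (adjusted p = 0.0513).

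Egr2, also known for its part in hindbrain segmentation and in myelination by Schwann cells, was called higher at E18.5 in both lineages. It read 9.26, 8.16 and 8.37 at MGE E18.5, against 5.80, 5.82 and 4.61 at MGE E14.5, and 7.50, 9.85 and 8.26 at CGE E18.5, against 4.23, 4.71 and 4.29 at CGE E16.5. The highest early array, at 5.82, lay below the lowest E18.5 array, at 7.50. The difference was 3.19 ± 0.52 in MGE cells (adjusted p = 0.0012) and 4.13 ± 0.52 in CGE cells (adjusted p = 0.0017). The CGE E16.5 values stood at percentiles 3.8, 7.7 and 4.2 of their arrays, near the bottom of the scale, so that neither the size of this difference nor its rank among genes is exact. The other Egr2 probe set gave 2.86 ± 0.45 in MGE cells (adjusted p = 0.000945) and 2.84 ± 0.45 in CGE cells (adjusted p = 0.00506). The Egr2 calls held in both lineages under all 23 other settings in which it was tested.

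Egr3 is an EGR factor induced downstream of calcium and growth factor signals. Pooled over the 4 groups, its within-group SD was the lowest of the 9 members (0.415, against 0.424 for Nr4a1), though not within each group. Egr3 read 9.81, 9.15 and 9.42 at MGE E18.5, against 6.25, 6.73 and 5.68 at MGE E14.5. It read 8.26, 8.34 and 7.49 at CGE E18.5, against 5.71, 6.21 and 6.20 at CGE E16.5. All 6 late arrays lay above all 6 early ones. The difference was 3.24 ± 0.29 in MGE cells (9.43-fold, adjusted p = 1.15e-05) and 1.99 ± 0.29 in CGE cells (3.97-fold, adjusted p = 0.00347), and both calls held under all 24 other settings. The early values stood between percentiles 17.1 and 29.7 of their arrays, which may understate these differences.

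Ier2, an immediate early nuclear protein that is less well studied, read 6.80, 6.81 and 6.99 at MGE E18.5, against 6.06, 6.35 and 6.04 at MGE E14.5. It read 7.20, 9.0 and 7.72 at CGE E18.5, against 6.71, 5.86 and 5.99 at CGE E16.5. Stages did not overlap in either lineage, but only the CGE difference passed, at 1.79 ± 0.37 (3.45-fold, adjusted p = 0.0123), while that of MGE cells was 0.72 ± 0.37 (adjusted p = 0.195). Ier2 passed the filter through the CGE E18.5 arrays alone, and without the filter the adjusted p of the CGE difference was 0.0151. The CGE call was lost without CGE E16.5 replicate 3 (adjusted p = 0.0508), and the MGE difference was called without CGE E18.5 replicate 2 (adjusted p = 0.0369), the array with the Ier2 value of 9.0. With only the groups compared in the fit, the MGE difference was called (adjusted p = 0.00485) and the CGE difference was not (adjusted p = 0.0794), and array weights also gave the MGE call (adjusted p = 0.0232).

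Atf3, a stress-induced ATF/CREB factor, and Nr4a1, a nuclear receptor induced by activity, were dim throughout. Atf3 read 4.43, 5.11 and 4.21 at MGE E18.5, against 4.06, 4.07 and 4.06 at MGE E14.5, and 4.85, 6.38 and 5.88 at CGE E18.5, against 4.09, 4.40 and 4.30 at CGE E16.5. It was called higher in CGE cells only (1.44 ± 0.33, adjusted p = 0.0222), and its MGE difference was 0.52 ± 0.33 (adjusted p = 0.301). Nr4a1 read 5.29, 5.33 and 6.17 at MGE E18.5, against 4.23, 4.52 and 4.59 at MGE E14.5, and 4.62, 5.49 and 4.52 at CGE E18.5, against 4.48, 4.70 and 5.24 at CGE E16.5. It was called higher in MGE cells (1.15 ± 0.30, adjusted p = 0.0196), while the CGE stages overlapped and differed by 0.07 ± 0.30 (95% interval -0.59 to 0.73). No detection calls were used, and differences of values this dim can be understated. The Atf3 call was lost without CGE E16.5 replicate 1 or 3 or CGE E18.5 replicate 2 or 3 (adjusted p = 0.0563, 0.0676, 0.0723 and 0.056), and the Nr4a1 call without MGE E14.5 replicate 1 (adjusted p = 0.0743) or MGE E18.5 replicate 3 (adjusted p = 0.0805).

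**Figure D2:**
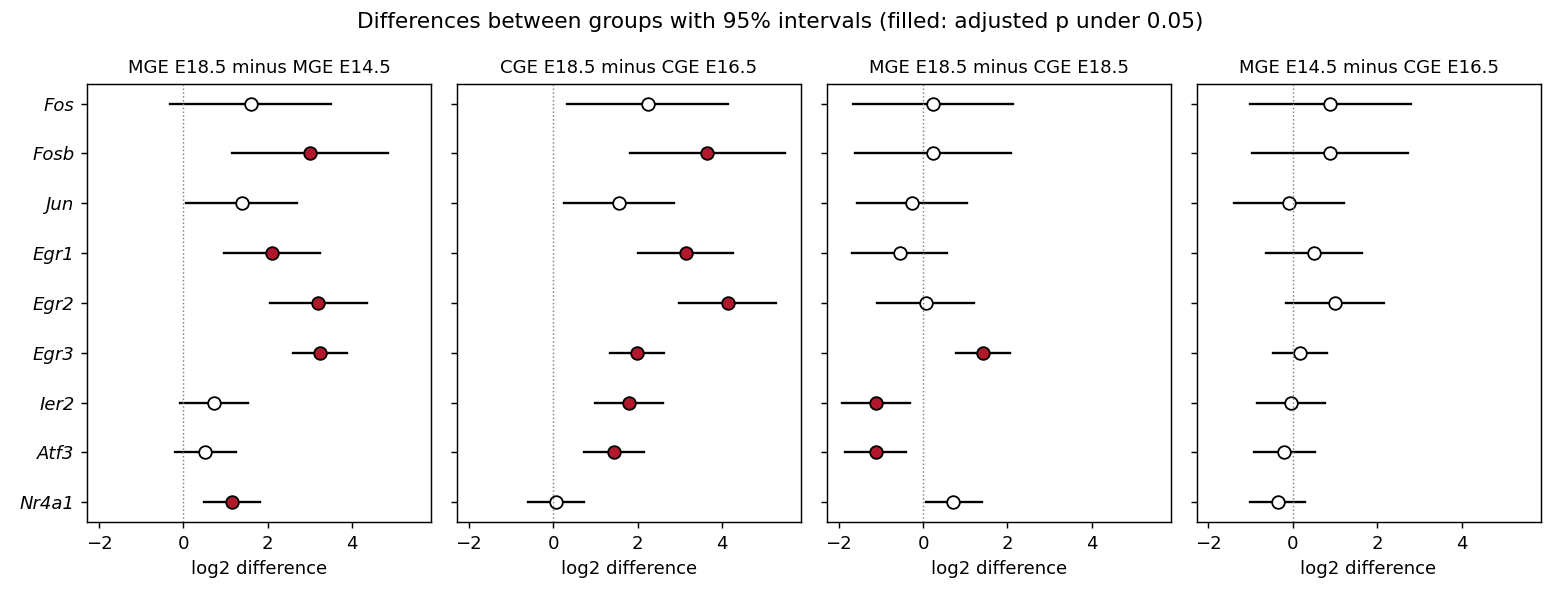
Log2 differences of the 9 members in the 4 comparisons between groups, each with its 95% interval from limma; filled circles have an adjusted p under 0.05. The differences with stage lie right of 0 for every member in both lineages, the largest being 4.13 for Egr2 in CGE cells, while those between lineages lie on both sides of 0.

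The same genes were then compared between lineages, in comparisons that share their arrays with those of stage. At E18.5, Egr3 was higher in MGE cells than in CGE cells, with means of 9.46 ± 0.33 and 8.03 ± 0.47 (SD, n = 3 each), no overlap, and a difference of 1.43 ± 0.29 (2.69-fold, adjusted p = 0.00425) that was called under all 24 other settings. Ier2 was lower in MGE cells, with means of 6.86 ± 0.11 in MGE cells and 7.97 ± 0.93 in CGE cells, and a difference of -1.11 ± 0.37 (adjusted p = 0.0491). Ier2 had passed the filter through the CGE E18.5 arrays alone, so this filtered test was not a neutral one. The Ier2 call was lost under 15 of 23 other settings, without the filter among them (adjusted p = 0.0517), and the difference shrank to -0.59 (adjusted p = 0.115) without CGE E18.5 replicate 2. Over those 23 settings its adjusted p ran from 0.00965 to 0.119. Atf3 was also lower in MGE cells (4.58 ± 0.47, against 5.70 ± 0.78 in CGE cells, with overlap, adjusted p = 0.0301 without the filter), and lost its call without MGE E18.5 replicate 1 or 3 or CGE E18.5 replicate 2 or 3 (adjusted p = 0.0904, 0.11, 0.103 and 0.0837). In the unfiltered fit 1 of the 9 members was thus called higher in MGE cells, against 13.1% of all genes, and 1 lower, against 9.35%. In the filtered fit, 1 of the 7 was called higher, against 13.0%, and 1 lower, against 9.86%. A single member in each direction is near these backgrounds. The differences of Fos (0.24, 95% interval -1.67 to 2.14), Fosb (0.23, -1.61 to 2.08), Jun (-0.26, -1.57 to 1.04), Egr1 (-0.55, -1.68 to 0.58) and Egr2 (0.06, -1.09 to 1.20) did not pass, and their intervals leave room for differences of more than 1 on the log2 scale in at least 1 direction.

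In the early samples, MGE cells at E14.5 and CGE cells at E16.5, lineage and day cannot be told apart. limma called 0 of the 9 members, against 8.66% of all genes called in either direction without the filter and 10.1% with it. A count of 0 among 9 is near this background. The unadjusted limma p was under 0.05 for 0 of the 9, a count for which no share over all genes is given here and which is therefore not a result about the members. The 2 largest differences were those of Egr2 (1.00 ± 0.52, adjusted p = 0.292) and Fosb (0.89 ± 0.84, adjusted p = 0.599). Egr2 averaged 5.41 ± 0.69 in MGE cells and 4.41 ± 0.26 in CGE cells, and was called when arrays were weighted by their quality (1.21, adjusted p = 0.0359).

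Whether the stage difference itself differed between the lineages was tested as an interaction. limma called 0 of the 9 members, against 8.69% of all genes called in either direction without the filter and 8.64% with it, and 0 among 9 is near this background. The unadjusted limma p was under 0.05 for 2 of the 9, a count for which no share over all genes is given here. It is therefore not a result about the members. Egr3 came closest, its MGE difference exceeding its CGE difference by 1.25 ± 0.42 (95% interval 0.34 to 2.16, adjusted p = 0.0917), followed by Nr4a1 with 1.08 ± 0.43 (0.14 to 2.02, adjusted p = 0.156). Ier2 (-1.07 ± 0.52), Egr1 (-1.04 ± 0.73), Egr2 (-0.94 ± 0.74) and Atf3 (-0.92 ± 0.46) leaned the other way. Thus the stage differences of Ier2, Atf3 and Nr4a1, each called in one lineage alone, were not shown to differ between lineages. Atf3 passed without CGE E18.5 replicate 1 (-1.35, adjusted p = 0.0284). The earlier stage was E14.5 in MGE cells and E16.5 in CGE cells, so the intervals compared are of unequal length.

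**Figure D3:**
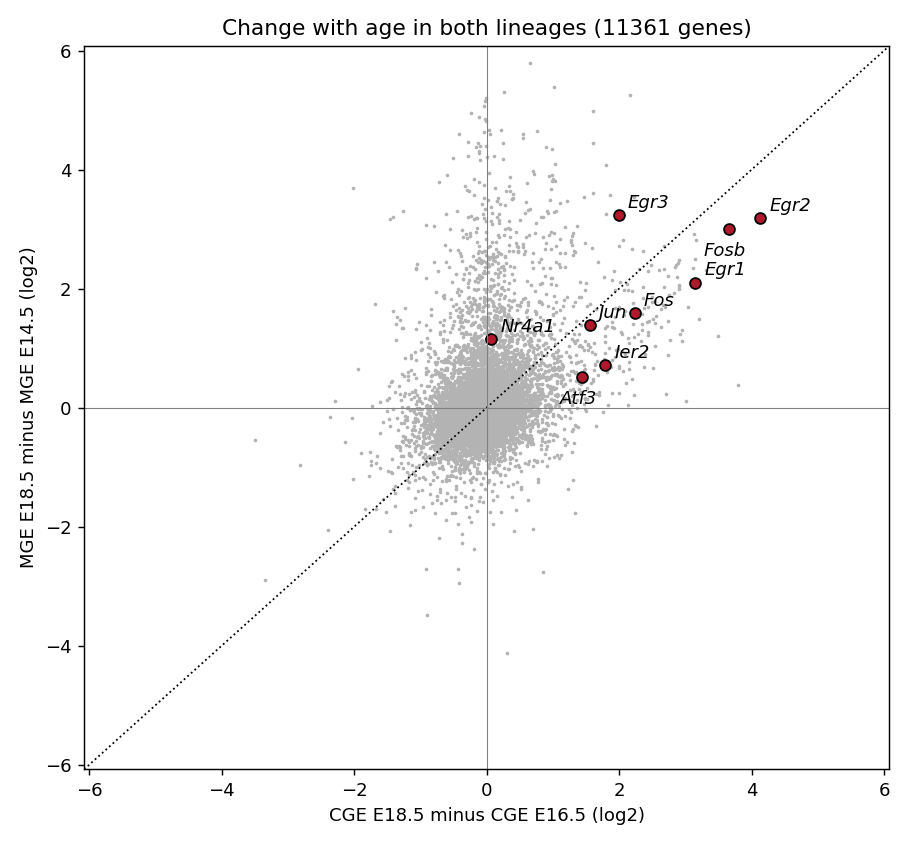
Stage difference of each of 11361 genes in MGE cells (vertical, log2) against that in CGE cells (horizontal, log2), the 9 members in red; the dotted line marks equal differences. Egr3 and Nr4a1 lie above the line, and the other 7 members below it, with Egr2 at 4.13 on the horizontal axis.

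Replicates of a group differed more in these genes than in most. The within-group SD, pooled over the 4 groups, was 1.28 for Fos, 1.24 for Fosb, 0.872 for Jun, 0.763 for Egr2 and 0.751 for Egr1, and lowest for Egr3 (0.415). The median of the 9 members was 0.751, against 0.22 over all 11361 genes, of which 90% lay under 0.416. Fos and Fosb stood at percentile 99.9 and Jun at 99.6 of that distribution. The SE of a stage difference was accordingly 0.87 for Fos and 0.29 for Egr3, so that a CGE difference of 2.24 did not pass for Fos while one of 1.99 did for Egr3.

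**Figure D4:**
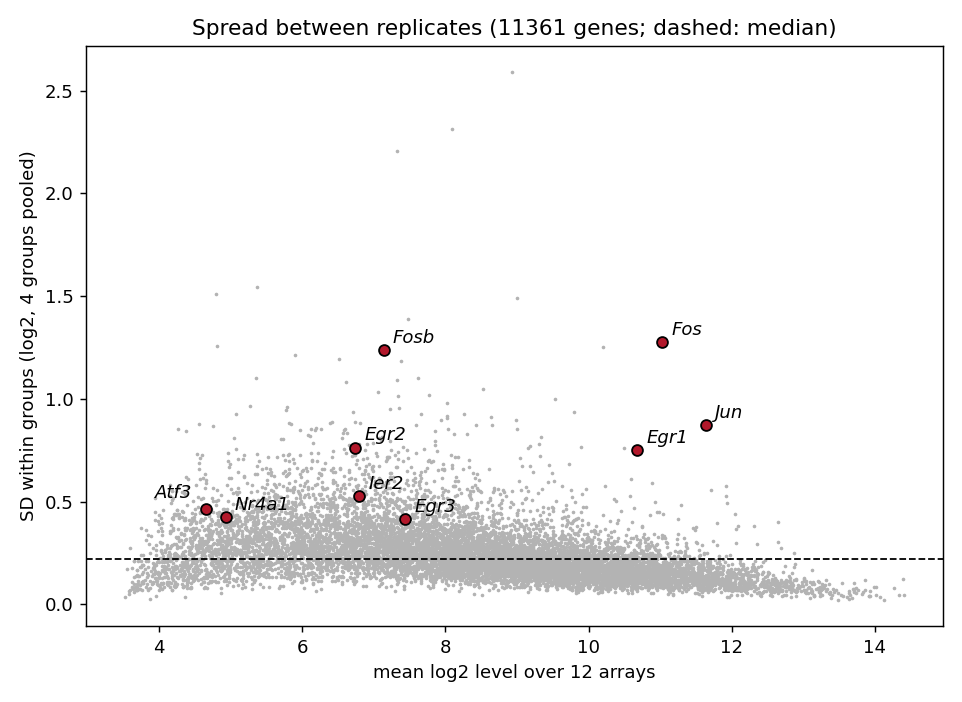
Within-group SD (log2, pooled over 4 groups of 3 arrays) of each of 11361 genes against its mean log2 level over 12 arrays, with the 9 members in red and the median SD, 0.22, dashed. Fos, Jun and Egr1 stand far above other genes of similar level.

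The members tended to deviate together. After each group's mean was subtracted, 31 of the 36 pairs of members had a correlation above 0 over the 12 arrays, with a median of 0.44. Fos correlated at 0.87 with Fosb, 0.85 with Jun and 0.83 with Egr1, while Nr4a1 had -0.34 with both Fos and Fosb. These are descriptions, since the points share 12 arrays and their normalisation. At MGE E14.5, replicate 3 was the lowest array for 7 of 9 members and replicate 2 the highest for 8. At CGE E18.5, replicate 1 was the lowest for 7 and replicate 2 the highest for 8. The other groups were less uniform. At MGE E18.5, replicates 1, 2 and 3 were the lowest for 2, 3 and 4 members and the highest for 6, 1 and 2. At CGE E16.5 they were the lowest for 5, 1 and 3 and the highest for 3, 5 and 1. No share over all genes or gene pairs is given here for these counts or for the 31 pairs. The mean of the 7 members kept by the filter, each centred on its own mean, was 1.62, 1.20 and 0.79 on the MGE E18.5 arrays, against -0.72, -0.09 and -2.09 at MGE E14.5. It was 0.58, 1.90 and 1.12 at CGE E18.5, against -1.28, -1.05 and -1.99 at CGE E16.5. This mean is a description only, of genes that the filter kept partly for being high at E18.5. With both early replicates 3 left out, 4 of the 9 members were still called higher in MGE cells, and 3 in CGE cells. Among the 8796 genes kept by the filter, 816 were then called higher in MGE cells, against 1007 with all arrays. In CGE cells 90 were, against 395, so calls fell over all genes as well.

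**Figure D5:**
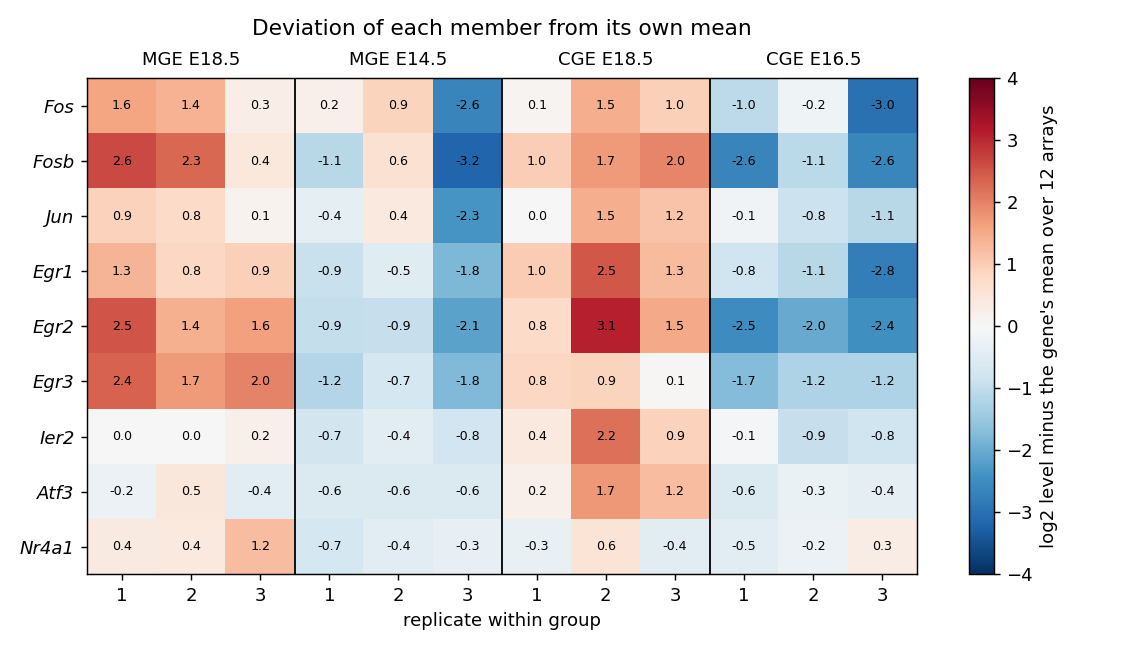
Log2 level minus the gene's own mean over 12 arrays, for 9 members (rows) on 12 arrays (columns), red above and blue below the mean. The MGE E14.5 and CGE E16.5 columns are mostly blue, replicate 3 the bluest for Fos (levels of 8.40 and 8.04), and CGE E18.5 replicate 2 holds the reddest cell, Egr2 with a level of 9.85.

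The genes whose pattern over the 12 arrays was most like the mean of the 7 members were sought among all others kept. The closest 10, by Pearson correlation, were Maff (0.956), Klf6 (0.955), Zfp36 (0.927), Sat1 (0.91), Tbc1d15 (0.907), Depdc1b (0.905), Dusp1 (0.905), Hmgn5 (0.902), Csrp1 (0.902) and Cnbp (0.897). Maff is a small MAF factor, Klf6 a Krüppel-like factor, Zfp36 an RNA-binding protein that hastens mRNA decay, and Dusp1 a MAP kinase phosphatase. With Fos alone the closest were Klf4 (0.917), Fosb (0.912), Dusp1 (0.903), Jund (0.895) and Jun (0.881). Among the members, Egr1 and Egr2 (0.97 each) followed the mean most closely and Ier2 (0.76) least.

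Other genes of the response moved in part. Of 19 further immediate early transcription factors and related nuclear genes, 10 were tested; 2 were called higher and 1 lower in MGE cells with stage, and 5 higher and 0 lower in CGE cells. Their median difference was 0.55 in MGE cells and 1.24 in CGE cells, against -0.06 and -0.07 over all genes tested. Of the 19, 15 were in the table, and the filter kept these 10. Maff, Btg2, Nr4a2 and Klf2 had group means above the filter's level (7.10 to 7.17) only at E18.5. For Btg2 and Nr4a2 this was so in CGE cells alone (7.93 and 7.61), and for Klf2 in MGE cells alone (7.35). The 10 are thus not a neutral sample of the list, and their counts and medians may be tilted upward. The background for this and the following lists is that given above, 11.4% of genes called higher and 9.77% lower in MGE cells, and 4.49% higher and 6.37% lower in CGE cells, and a share near it is not a result about the list. Maff was higher in both, by 1.74 ± 0.39 in MGE cells (adjusted p = 0.00856) and 1.55 ± 0.39 in CGE cells (adjusted p = 0.0283). Klf6 was also higher in both, by 1.04 ± 0.34 (adjusted p = 0.0482) in MGE cells and 1.40 ± 0.34 (adjusted p = 0.0233) in CGE cells, though its MGE call was lost under 13 of 24 other settings. Btg2, an antiproliferative gene, was higher by 1.60 ± 0.42 (adjusted p = 0.033) in CGE cells. Myc, which drives growth and division, fell in MGE cells (-0.58 ± 0.14, adjusted p = 0.0143) and rose in CGE cells (0.53 ± 0.14, adjusted p = 0.0395). Some of these calls were lost when a single array was left out, while the differences kept their direction. Over all settings tried, the adjusted p reached 0.134 for Maff, 0.119 for Klf6 and 0.0909 for Btg2 in CGE cells. Each of these calls was lost without CGE E16.5 replicate 1 or 3 or CGE E18.5 replicate 2. The differences ran from 1.14 to 1.85 for Maff, 1.16 to 1.80 for Klf6 and 1.08 to 1.98 for Btg2. For Myc in MGE cells the adjusted p reached 0.0654, with differences of -0.67 to -0.51. Its call was lost without MGE E14.5 replicate 1 or 2 or MGE E18.5 replicate 1.

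Among 24 effectors and feedback genes, 15 were tested, with 3 called higher and 0 lower in MGE cells, and 3 higher and 1 lower in CGE cells, where the background was 11.4% higher and 9.77% lower in MGE cells and 4.49% higher and 6.37% lower in CGE cells. Zfp36 was higher by 1.66 ± 0.22 in MGE cells (adjusted p = 0.000265) and 2.00 ± 0.22 in CGE cells (adjusted p = 0.000804). Dusp6, a phosphatase of ERK, was higher by 2.19 ± 0.37 in MGE cells (adjusted p = 0.00144) and 1.77 ± 0.37 in CGE cells (adjusted p = 0.0129), and at E18.5 it was higher in MGE than in CGE cells by 1.92 ± 0.37 (adjusted p = 0.0028). Socs3, an inhibitor of cytokine signalling, was higher in MGE cells (1.01 ± 0.24, adjusted p = 0.0107), and Dusp4 was lower in CGE cells (-1.13 ± 0.19, adjusted p = 0.00543). The Dusp6 call in CGE cells was lost without CGE E18.5 replicate 2, and its adjusted p reached 0.0658. Also at E18.5, Gadd45g was lower in MGE than in CGE cells (-1.25 ± 0.20, adjusted p = 0.000919) and Sgk1 higher (1.08 ± 0.19, adjusted p = 0.00175).

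Of 16 heat shock and stress genes, 13 were tested, and 2 were called higher in MGE cells and 1 in CGE cells, with median differences of 0.04 in MGE cells and 0.16 in CGE cells. The backgrounds of genes called higher were 11.4% in MGE cells and 4.49% in CGE cells, and counts of 1 or 2 in this list and the lists that follow are not results about the lists. Hmox1, which degrades haem, was higher by 1.38 ± 0.22 in MGE cells (adjusted p = 0.00112), and Ddit4, an inhibitor of mTOR, by 0.95 ± 0.14 (adjusted p = 0.00054). In CGE cells the call was Hspa5, an endoplasmic reticulum chaperone, at 0.67 ± 0.18 (adjusted p = 0.0396). Of 18 upstream regulators, 11 were tested, and 2 were called higher and 1 lower with stage in each lineage. Elk4, a ternary complex partner of SRF, was higher in both (0.84 ± 0.19 in MGE cells, adjusted p = 0.00866, and 0.74 ± 0.19 in CGE cells, adjusted p = 0.0301), and Srf itself in CGE cells (0.66 ± 0.16, adjusted p = 0.0213). In CGE cells the calls of Hspa5, Elk4 and Srf were each lost without CGE E16.5 replicate 3 or CGE E18.5 replicate 2, with adjusted p up to 0.16, 0.138 and 0.101 over the settings. Of 12 AP-1 partners, 8 were tested and 1 was called, Mafk, higher by 1.33 ± 0.20 in MGE cells (adjusted p = 0.000628).

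Some markers of other cell types were higher at E18.5, and others were not. Of 7 pallial glutamatergic neuron markers, 4 were in the table. Their mean log2 level was 5.90 to 6.95 at MGE E18.5, against 6.47 to 7.59 at MGE E14.5. In CGE cells it was 5.52 to 6.57 at E18.5, against 6.68 to 7.66 at E16.5. Of these markers 2 were tested, with median differences of -0.72 in MGE cells and -1.34 in CGE cells, and 0 were called. Of 6 radial glia and astrocyte markers 5 were tested, and 4 were called higher with stage in MGE cells, namely Slc1a3 (3.81, adjusted p = 1.51e-06), Hes5 (2.95, adjusted p = 0.00133), Aldoc (2.5, adjusted p = 0.00035) and Fabp7 (1.61, adjusted p = 1.1e-05). In CGE cells 2 of the 5 were called higher, Slc1a3 (0.98, adjusted p = 0.0415) and Fabp7 (0.74, adjusted p = 0.0103). Of the 6 interneuron markers, 5 were called lower with stage in MGE cells, by 0.43 to 0.82, and 0 were called in CGE cells. Of 10 microglia genes, 5 were in the table, and their mean log2 level was 5.62 to 5.97 on the MGE E18.5 arrays, against 4.28 to 4.63 at MGE E14.5, and 5.59 to 6.68 at CGE E18.5, against 4.70 to 5.15 at CGE E16.5. Csf1r, the receptor that sustains microglia, was higher with stage by 2.63 ± 0.56 in MGE cells (adjusted p = 0.0065) and 2.36 ± 0.56 in CGE cells (adjusted p = 0.0218), and C1qb by 2.18 ± 0.25 (adjusted p = 6.89e-05) and 0.98 ± 0.25 (adjusted p = 0.0286). Their early arrays reached only 6.41 and 5.98, below the filter's level of 7.10 to 7.17, and those of Slc1a3 only 6.77. These genes passed the filter through E18.5 arrays alone, so that their calls do not come from a neutral choice of markers. Among the microglia genes that did not pass the filter, P2ry12 averaged 5.26 at MGE E18.5 and 4.09 at MGE E14.5, and 5.43 at CGE E18.5 and 4.47 at CGE E16.5. Fcrls averaged 6.12, 5.24, 6.44 and 5.61 in the same order. Ptprc, which marks all white blood cells, stayed between 3.49 and 3.77 on every array. This is near the lowest value measured, 3.23, where a difference may not show. The highest microglia mean, 6.68, belonged to CGE E18.5 replicate 2, which held the highest value of its group for 8 of the 9 members, and without this array 4 of the 9 were called higher in CGE cells. Among the 8796 genes kept by the filter, 189 were then called higher in CGE cells, against 395 with all arrays. Of 10 vascular genes, 3 were in the table, with means of 5.69 to 5.94 at MGE E18.5, against 4.66 to 4.97 at MGE E14.5, and 5.31 to 6.26 at CGE E18.5, against 4.86 to 5.17 at CGE E16.5. In MGE cells most of this shift was that of Rgs5, with means of 7.54 at E18.5 and 4.94 at E14.5, whereas Esam had 5.11 and 5.08 and Flt1 4.73 and 4.42 at the same stages. The 6 oligodendrocyte precursor markers averaged 5.16 to 5.58 in CGE cells at E18.5, with 0 of them above the 40th percentile on any of these arrays, but Olig1 was called higher with stage in CGE cells (1.03, adjusted p = 0.0285) and Olig2 differed by 0.69 (adjusted p = 0.0569). The part of each of these cell types in the stage differences was not tested.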

How the data were processed

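RNA of sorted cells was amplified and hybridised to Affymetrix Mouse430_2 arrays, 3 in each of 4 groups. The authors deposited log2 values that, by their methods, had been corrected for background and normalised in Bioconductor. The submitters' processing notes list MAS5, so the algorithm is not settled. Values lay between 3.23 and 14.97, with array medians of 7.75 to 7.81. Arrays have no read depth, and their number limits the precision; 3 arrays against 3 cannot give a two-sided exact permutation p under 0.1.

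The table held 27094 probe sets, and how these were chosen is not stated in the methods or labels. Apart from 34 controls, 22343 had 1 symbol in the platform annotation, 567 several and 4150 none. Probe sets with 1 symbol were kept when above the 40th percentile of their array (7.10 to 7.17) on at least 3 of 12 arrays, which left 16010, and each gene was represented by its brightest kept probe set, giving 8796 genes. The linear model of limma 3.58.1 (R 4.3.3), with eBayes moderation, fitted 1 mean per group over all 12 arrays, with two-sided tests and Benjamini-Hochberg adjustment over all genes of a comparison, called under 0.05. Differences are E18.5 minus the earlier day, or MGE minus CGE. The fit was tested on simulated data. Deviations of same-numbered arrays correlated between -0.17 and 0.28 over the 4 comparisons, and the numbers were not used to pair them in the main fit. In the early comparison same-numbered arrays had 0.07, 0.19 and 0.28, and arrays of different numbers -0.23 to 0.13. Whether the early arrays of a number were handled together was not tested.

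The members and the gene lists were chosen with earlier results of these data known. Named genes are all members, the 10 genes most like their mean, the 5 most like Fos, and the called genes of each list with the 3 largest differences per comparison; not all of these are printed. Alternatives were quantile normalisation, median centring, other filters, every probe set on its own or averaged, trend and robust moderation, array weights, a replicate block, only the groups compared, and each array left out. Promoters were read from RefSeq (GRCm38.p6). Figures were drawn with matplotlib 3.10.9 in Python 3.11.15.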

Additional observations from a re-analysis of the deposited data

Results flagged for a closer look

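No member met a rule for a closer look. In the lists named above, apart from the markers of cell types, 6 genes did. Their stage difference differed between the lineages in the interaction test of limma. The values are the MGE difference minus the CGE difference (log2 scale). These lists had 10, 15, 13, 11 and 8 genes tested, and 8.64% of all 8796 genes were called in either direction. A count of 6 is near this background and is not a result about the lists. Dusp4 differed by 1.40 ± 0.27 (SE, adjusted p = 0.00602), with 0.27 in MGE cells and -1.13 in CGE cells. Hmox1 differed by 1.51 ± 0.32 (adjusted p = 0.0105), with 1.38 in MGE cells and -0.13 in CGE cells. Its mean was above the filter's level only at MGE E18.5, the group that drives this difference, so its test was not a neutral one. Myc differed by -1.11 ± 0.20 (adjusted p = 0.00496), with -0.58 in MGE cells and 0.53 in CGE cells. Mafk differed by 1.11 ± 0.28 (adjusted p = 0.0311), Socs3 by 1.25 ± 0.33 (adjusted p = 0.0389) and Crtc1, a CREB co-activator, by 0.86 ± 0.24 (adjusted p = 0.045). The calls of Mafk and Socs3 were lost under 9 of 22 other settings and that of Crtc1 under 14 of 23.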

How the results depend on the processing

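No result changed direction where it was called. Of 2637 comparisons of a single gene or description with its value under another setting, 2335 kept their side of the threshold, 287 lost a call, 14 gained one and 1 description moved: the CRE core was in the promoters of 6 members and the full site in those of 0. With each array left out in turn, genes called ran from 1168 to 2012 for MGE maturation (1866 with all arrays), 374 to 1207 for CGE maturation (955), 1502 to 2060 late (2010), 533 to 1006 early (886) and 535 to 895 for the interaction (760), and members called ran from 3 to 6, 3 to 7, 1 to 3, 0 to 0 and 0 to 1 in the same order. With every kept probe set on its own the calls were 3110 for MGE maturation, 1630 for CGE maturation, 3626 late, 1547 early and 1480 for the interaction, over more features tested. Array weights gave 3488, 543 and, early, 1815. Only the groups compared gave 175 for CGE maturation. Settings chosen after seeing the data were averaging MGE E14.5 replicates 1 and 2 (1210 for MGE maturation, 547 early), leaving out both early replicates 3 (223 for CGE maturation, 526 early), and each setting without the filter, under which the count of members called in CGE cells became 3 with only the groups compared or both early replicates 3 left out, the late count 1 under the same settings, and the early count 1 with array weights. With the replicate block, for which the check of pairing gave mixed values, 1712, 869, 1942, 829 and 752 genes were called in that order. Under this block Fos passed in CGE cells (adjusted p = 0.0421) and Ier2 lost its late call (adjusted p = 0.0639). Dim values limit Atf3, Nr4a1, Ier2 and the early levels of Fosb, Egr2 and Egr3. The cause of these shifts was not tested.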
